A study of Mus musculus with 2 samples.

Results

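The cytosolic ribosomal protein genes encode the proteins of the ribosome outside mitochondria. They were taken from the deposited gene tables by symbol: names beginning Rpl or Rps followed by a digit, names beginning Rplp followed by a digit, and Rpsa, without the Rps6k kinases and without symbols marked as pseudogenes. This rule gave 86 of the 31053 genes listed, of which 33 carried small-subunit names and 52 large-subunit names. The remaining symbol, Rps19bp1, names a protein that binds a ribosomal protein and is no subunit itself.

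Single cells from mouse hearts at E12.5, mid-gestation, were profiled with a droplet kit that counts unique molecular identifiers (UMIs), in 1 library per genotype. Both genotypes carried Tbx18-Cre, a recombinase driven from a gene that is active in the epicardium and in parts of the myocardium, and 1 copy of a YFP allele. The control library was Tbx18-Cre; YFP/+ and the mutant library was Tbx18-Cre; Prmt1 fl/fl;YFP/+, with both copies of Prmt1 floxed. Prmt1 encodes an arginine methyltransferase. How many embryos were pooled and whether cells were sorted is stated in none of the sources, so a difference between the libraries could be one of genotype, embryo, dissociation or library, and these cannot be told apart. No test between genotypes was possible, and intervals below cover counting error only.

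A ribosome joins a small subunit, which reads the message, to a large subunit, which makes the peptide bond. Its proteins are needed in near-equal amounts, and their messages begin with a pyrimidine-rich tract through which the mTOR kinase controls their translation together. Nucleated red cells of the embryo fill with globin message as they mature, while the muscle cells of the heart commit much of their message to contractile proteins and mitochondria.

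The filters left 4100 control and 4640 mutant cells, and 8 barcodes occurred in both sets. Cells were gated by marker genes into 7 classes, which held 1593 and 1234 ventricular cardiomyocytes, 443 and 333 atrial cardiomyocytes, 231 and 399 epicardial, 800 and 1293 mesenchymal, 219 and 314 endothelial, 75 and 76 macrophage and 226 and 413 red cells in the control and mutant libraries. The first value of each pair below is the control, the second the mutant. In the other 513 and 578 cells no gate, or more than 1, was met. Median depth ran from 1858 to 12462 UMIs per cell over the control classes and from 2216 to 12693 over the mutant classes.

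Every class carried all markers of its own list, but several departed from clean labels. The epicardial class held mesenchymal markers at a summed 4574 and 3965 counts per 1000000 UMIs (CPM), near the 4381 and 4107 CPM of the mesenchymal class, beside epicardial markers at 3098 and 2384 CPM against 30.9 and 46.1 CPM in mesenchymal cells. The macrophage class held megakaryocyte markers at 3010 and 4686 CPM, with 2 of the 6 in at least 10% of cells. Red cells held mesenchymal markers at 329 and 813 CPM, with 5 and 8 of the 12 in at least 10% of cells. Their epicardial markers were at 64.1 and 175 CPM. Endothelial cells held mesenchymal markers at 353 and 584 CPM. The stricter gate kept 145 of the 226 control and 291 of the 413 mutant red cells. Globin and other red-cell messages were at 178 to 487 CPM in the other control classes and at 228 to 727 CPM in the other mutant classes, and their part in the results below was not tested. Prmt1 itself was counted at 464 (419 to 513) CPM in control and 387 (356 to 420) CPM in mutant epicardial cells, and over all cells at 567 and 624 CPM. The labels do not say which exons the floxed allele removes, so these counts do not check the labels.

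The annotated start sites of members that set the classes apart below are shown here, 30 bases each from 10 before to 20 after the start, from RefSeq on GRCm38.p6. Rplp0 (chr5:115559457-115559486, plus strand), Rpsa (chr9:120127756-120127785, plus) and Rps2 (chr17:24720053-24720082, plus) took larger shares of the ribosomal protein pool in red cells. Rpl31 (chr1:39367841-39367870, plus) and Rps27l (chr9:66946076-66946105, plus) took smaller ones, and Rps27 (chr3:90213629-90213658, minus) and Rps27rt (chr9:114982720-114982749, minus) are the relatives of Rps27l. Capitals mark the letters CTTTC, a pyrimidine core searched for as a mark of the tract at the start of these messages.
Rplp0: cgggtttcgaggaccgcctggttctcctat
Rpsa: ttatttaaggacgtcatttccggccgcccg
Rps2: gtcgagatctcgcgcttcttggagcactat
Rpl31: tcctcgcctccccgtgacccggaagttgta
Rps27l: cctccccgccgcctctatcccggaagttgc
Rps27: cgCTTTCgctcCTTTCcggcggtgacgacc
Rps27rt: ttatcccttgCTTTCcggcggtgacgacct

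Start windows were found for 66 members, 78 windows in all because some genes have several starts. CTTTC lay on the gene's strand within 30 bases of the start in 24 of them (30.8%), against 7.93% of all 32851 windows of that length, and on the opposite strand in 10.3% against 7.42%. The other motif searched, CCGGAAG, a core that ETS-family factors are known to bind, lay between 250 bases before and 50 after the start on the gene's strand in 23.1% of member windows and 4.77% of all windows, and on the opposite strand in 12.8% and 4.79%. In the lines above it stands in the windows of Rpl31 and Rps27l. A match describes letters only.

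Members lay on 19 chromosomes, with at most 14 on 1 of them, chromosome 7, and 4 on the X. Of the 86, 81 reached 10 CPM in each of the libraries in all 7 classes, 1 in 6, 1 in a single class and 3 in none. The 10 most abundant, among them Rps27a, Rps24, Rpl37 and Rpl41, gave 29.0% of ribosomal protein UMIs in both libraries. UMI counts from 1 end of a message are not scaled to length, so levels are compared between classes and not between genes. For 52 members, over 50% of the 50-base words in the last 300 bases of the transcript also occurred in another annotated gene, mostly pseudogenes, and for 20 none did. How the authors' counting treated such reads is not given, so levels of the former are uncertain. Of the members described below, Rpsa, Rps2, Rplp1, Rpl31, Rps27a, Rps12, Rpl36, Rpl36al, Rpl22l1, Rpl10a and Rps19 are among the former. So are Rps27, Rps27rt, Rpl10, Rpl36a, Rpl24, Rplp2, Rpl3, Rpl9, Rpl41, Rps4x, Rpl17 and Rpl7. The same holds for Rps15, Rpl35a, Rps18, Rps28, Rpl29, Rpl21, Rpl18, Rpl30 and Rpl26. Rplp0, Rpl5, Rpl11, Rpl37, Rpl13a, Rps19bp1 and Rpl7l1 are among the latter.

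Ribosomal protein genes gave 14.8% of UMIs in control cells and 15.5% in mutant cells. As a share of all UMIs, the set was lower in cardiomyocytes than in the 4 other non-red classes in both libraries. In control ventricular cardiomyocytes it was 15.9% (15.84 to 15.87, exact binomial interval) and in mutant ones 16.5%. Atrial cardiomyocytes had 12.9% and 13.5%. Epicardial cells had 19.0% and 20.2%, mesenchymal cells 19.1% and 18.8%, endothelial cells 20.6% and 19.9%, and macrophages 20.3% and 22.5%. Red cells had the lowest shares, 5.39% and 8.15%, in libraries where haemoglobin took 74.3% and 61.4% of red-cell UMIs.

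Single cells spread widely around these sums. The 5th to 95th percentiles were 11.8% to 18.8% and 12.4% to 19.6% in ventricular, and 14.04% to 26.6% and 12.9% to 26.5% in endothelial cells, so ranges of the classes overlapped except at their ends. Red cells spread from 1.79% to 16.9% and from 2.47% to 18.2%, the widest range for their level.

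**Figure D1:**
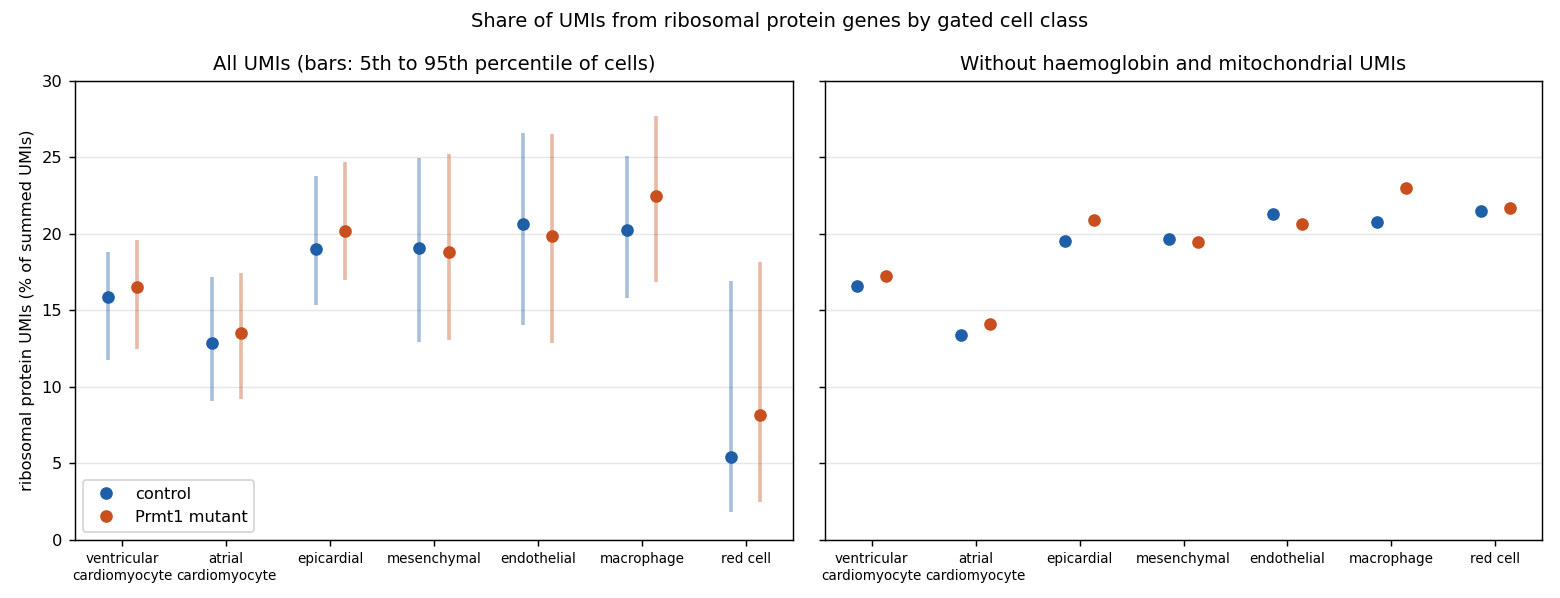
Share of UMIs from ribosomal protein genes (percent of summed UMIs) in each gated class, control in blue and Prmt1 mutant in orange; left, of all UMIs, with bars from the 5th to the 95th percentile of single cells; right, with haemoglobin and mitochondrially encoded UMIs left out of the total. Red cells have 5.39% and 8.15% on the left and 21.5% and 21.7% on the right, while atrial cardiomyocytes have the lowest shares on the right, 13.4% and 14.1%.

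With haemoglobin and mitochondrially encoded UMIs left out of the total, red cells reached 21.5% (21.4 to 21.6) and 21.7% (21.6 to 21.7), among the highest classes. Ventricular cardiomyocytes then had 16.6% and 17.2%, atrial 13.4% and 14.1%, epicardial 19.6% and 20.9%, mesenchymal 19.7% and 19.5%, endothelial 21.3% and 20.7%, and macrophages 20.8% and 23.0%. Against the mean of the other classes on a log2 scale, red cells thus moved from -1.72 and -1.17 to 0.23 and 0.19, and ventricular cardiomyocytes from 0.10 and 0.02 to -0.21 and -0.19. With median-of-ratios size factors from genes outside the set in place of a total, the mean of both libraries was 0.74 in red cells, -0.10 in ventricular, -0.38 in atrial, -0.01 in epicardial, -0.18 in mesenchymal and -0.11 in endothelial cells and 0.03 in macrophages, so the sign of 5 classes rests on the total chosen. Atrial cardiomyocytes were below the mean of the other classes on every scale, on both totals at -0.26 and -0.32 and at -0.56 and -0.53. In control barcodes of 1 to 100 UMIs, which hold mostly free RNA, the share without these messages was 12.7%, below every class.

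Gene by gene on that reduced total, members were called where the class differed from the mean of the others by more than 1.5-fold in the same direction in both libraries, out of 83 measured. In atrial cardiomyocytes 22 members were lower, against 16.2% of all 6831 genes measured, and 0 higher, against 8.62% (24.8% in either direction). In red cells 16 were higher, against 11.2% of genes, and 2 lower, against 851 of the 6831 genes (23.6% in either direction). In macrophages 3 were higher, against 11.2%, and 0 lower (32.2% in either direction). In ventricular, epicardial, mesenchymal and endothelial cells no member passed in either direction, against 29.0%, 19.2%, 18.8% and 17.2% of genes. With 1 class differing from 6 others that share its library, these shares describe the libraries and were not tested.

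The balance of the subunits hardly varied. Small-subunit members gave between 43.5% and 45.6% of ribosomal protein UMIs over the control classes and between 43.6% and 45.1% over the mutant classes. Atrial cells were lowest and macrophages highest in the control (43.4 to 43.6 and 45.2 to 46.1). The stalk proteins Rplp0, Rplp1 and Rplp2, which form the lateral arm of the large subunit that recruits elongation factors, departed from this: they gave 7.59% and 6.61% in red cells and 2.95% to 3.55% in the other classes.

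To describe composition apart from level, each member was expressed per 10000 ribosomal protein UMIs of its class, and the class compared with the mean log2 share of the other 6. A member was called where it passed 1.5-fold in the same direction in both libraries, among 82 measured. In 5 classes no member was called in either direction, while of all 6302 genes measured in the same way 24.6% passed in ventricular, 27.6% in atrial, 17.4% in epicardial, 17.2% in mesenchymal and 15.1% in endothelial cells. In macrophages 1 member passed, Rplp0, against 33.6% of genes. In red cells 19 passed, against 26.5% of genes: 10 were higher, against 7.54%, and 9 lower, against 18.9%. The red-cell count was 7 with each cell thinned to 1000 UMIs, 31 with clusters in place of gates and 35 with cells that carry markers of a second class left out, and clusters also gave 6 members in epicardial, 3 in mesenchymal and 1 in atrial cells.

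**Figure D2:**
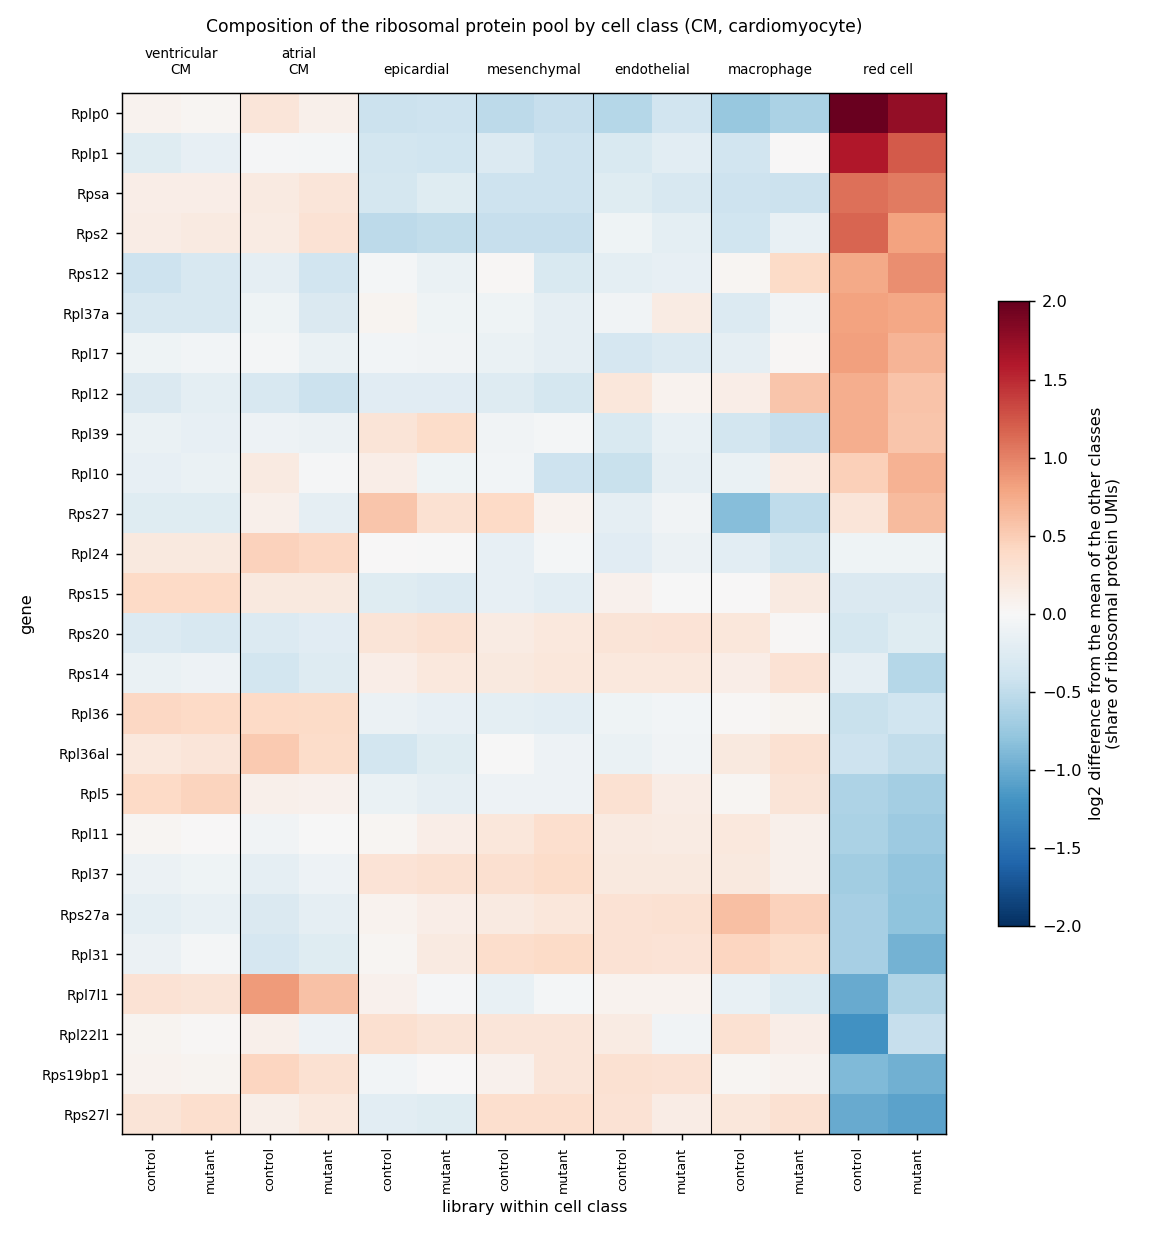
Members that ranked high or low in any class and are named in the text (rows), as the log2 difference of their share of ribosomal protein UMIs from the mean of the other classes, for control and mutant library in each of the 7 gated classes (columns; CM, cardiomyocyte). Red cells carry the strongest values, led by Rplp0 at 1.98 and 1.75, and Rpl36 is above the other classes in both cardiomyocyte classes.

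Red cells stood apart by proteins of the stalk and by 2 large contributors of the small subunit. Rplp0 (ENSMUSG00000067274), the base of the stalk, took 433 (423 to 444) and 392 (386 to 398) of 10000 ribosomal protein UMIs in red cells. In the other classes it took 139 and 141 in ventricular, 154 and 146 in atrial, 103 and 108 in epicardial, 97.5 and 105 in mesenchymal, 94.7 and 110 in endothelial cells and 84.7 and 94.3 in macrophages. The red-cell values lay above every other class in both libraries, and Rplp0 was the 1 member with its highest CPM in red cells in both.

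Rplp1, a stalk tip protein, took 190 and 153 in red cells and between 57.3 and 74.0 elsewhere, a log2 difference of 1.60 and 1.22. Its partner Rplp2 did not follow, with 135 and 116 in red cells and 125 to 161 elsewhere. Rpsa, the laminin receptor homologue of the small subunit, took 388 and 393 against 157 to 244 elsewhere. Rps2, at the entry of the message channel, took 422 and 343 against 155 to 252. Both therefore lay above every other class. Of the 6 alternatives that changed the cells, their depth or the fold, Rplp0, Rplp1 and Rpsa passed under 6 and Rps2 under 5. Rps2 missed only the 2-fold cut, which leaves its share as it is.

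Of the other members higher in red cells, Rps12 took 78.3 and 88.2 (38.5 to 63.4 elsewhere) and Rpl37a took 118 and 117 (60.4 to 81.5 elsewhere). Rps9, Rpl41 and Rpl17 also passed, at 0.70 and 0.84, 0.76 and 0.59, and 0.83 and 0.68 on the log2 scale. With each cell thinned to 1000 UMIs, Rpl41 still passed, and Rps12, Rpl37a, Rps9 and Rpl17 did not. Control barcodes of 1 to 100 UMIs gave 152 for Rplp0, 229 for Rpsa and 188 for Rps2 per 10000, far below the red cells, and 96.8 for Rplp1.

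The 9 members lower in red cells included Rps27l, a relative of Rps27 that p53 is known to induce, at 20.4 (18.1 to 22.9) and 18.2 (17.0 to 19.6) against 30.1 to 45.8 elsewhere. Rps19bp1 took 2.52 and 2.35 against 4.49 to 6.21. Rps27a, made as a fusion with ubiquitin, took 244 and 225 against 306 to 521. Rpl31, at the exit of the peptide tunnel, took 60.1 and 47.9 against 73.1 to 116. All 4 lay below every other class in both libraries. With each cell thinned to 1000 UMIs, Rps19bp1 alone of the 9 still passed 1.5-fold, at -0.67 and -1.65 on the log2 scale. That rests on few UMIs, since Rps19bp1 had 36 and 94 in red cells before thinning. After thinning the log2 differences were -0.04 and -0.52 for Rpl31, -0.20 and -0.47 for Rps27a, and -0.47 and -0.66 for Rps27l.

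Rpl7l1 (-1.005 and -0.61), Rpl37 (-0.69 and -0.79), Rpl11 (-0.63 and -0.73) and Rpl5 (-0.62 and -0.69) were also among the 9. Rpl5 and Rpl11 form, with the 5S RNA, the particle that can bind Mdm2. Rpl22l1 was further down in control than in mutant red cells, at 16.2 and 28.1 against 34.7 to 43.1 elsewhere, and passed 1.5-fold in the control alone.

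Red cells were mostly of the embryonic kind: 217 and 401 cells had more embryonic than adult beta-globin, with Rplp0 at 453 and 394. In the 9 and 12 cells with mostly adult beta-globin Rplp0 was 68.9 and 262, Rpsa 154 and 258, and Rpl31 109 and 101. These few cells, whose haemoglobin share was 19.0% and 63.0%, lay nearer to the non-red classes in the control.

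**Figure D3:**
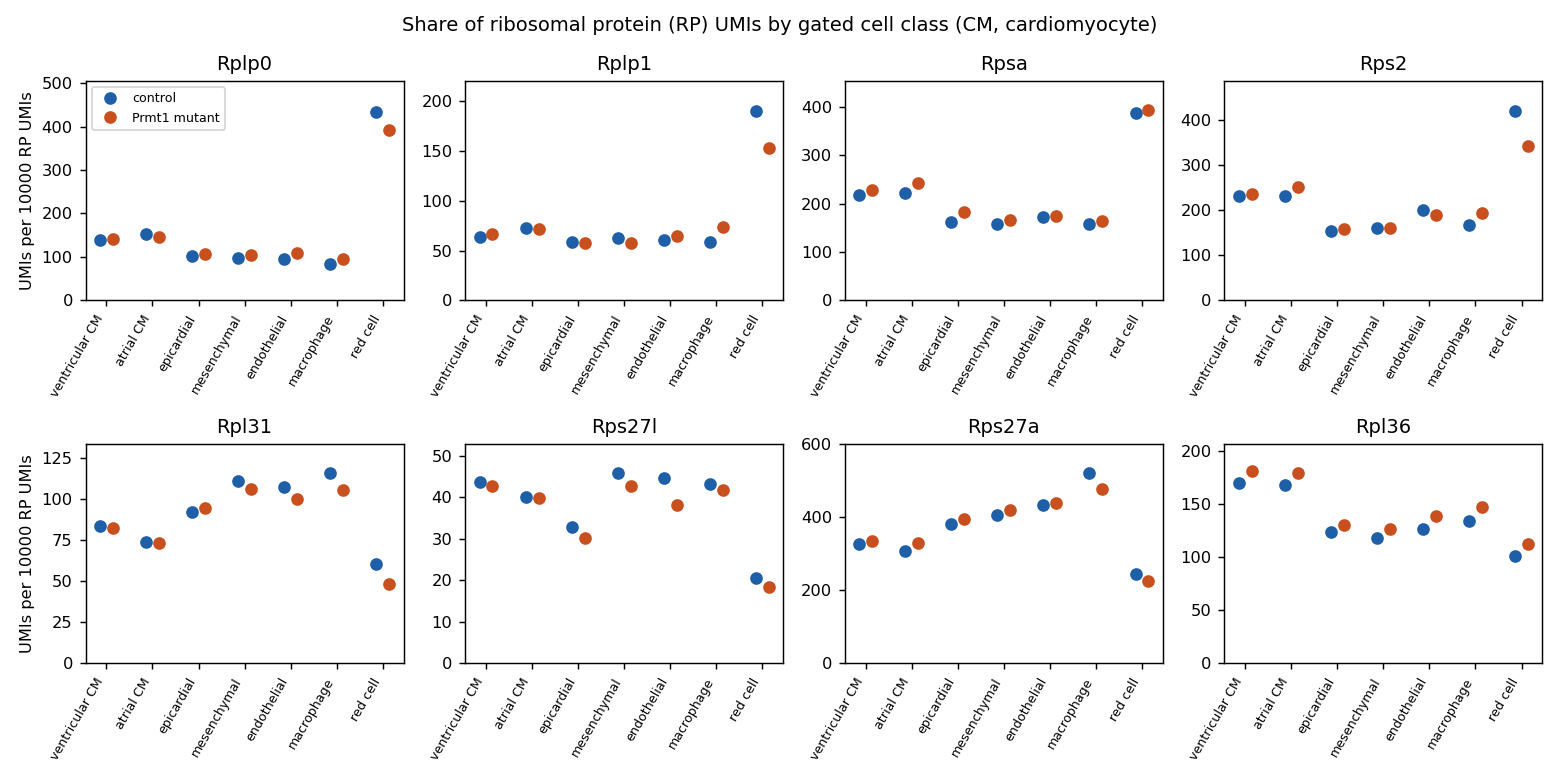
UMIs per 10000 ribosomal protein (RP) UMIs for 8 members in each gated class (CM, cardiomyocyte), control in blue and Prmt1 mutant in orange. Rplp0, Rplp1, Rpsa and Rps2 are highest in red cells, where Rpl31, Rps27l and Rps27a are lowest, and Rpl36 reaches 168 to 180 in both cardiomyocyte classes.

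The 2 cardiomyocyte classes shared a high share of Rpl36, a large-subunit protein, at 169 and 180 in ventricular and 168 and 179 in atrial cells against 101 to 147 elsewhere.

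Ventricular cells also held the highest share of Rpl5, at 58.2 and 65.0 against 31.5 to 58.0 in the other classes. Atrial cells were highest in Rpl24, at 144 and 138 with ventricular cells next at 123 and 120, and in Rpl7l1, at 6.69 (6.20 to 7.21) and 5.80 (5.30 to 6.33) against 4.62 and 4.67 in ventricular cells. Rps15 ranked next in ventricular and Rpl36al in atrial cells, while Rps12, Rpl37a, Rps20 and Rpl12 ranked lowest in ventricular and Rpl12, Rps14, Rps12 and Rpl31 in atrial cells. All of these differences stayed within 1.5-fold in at least 1 library.

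Other members led in the non-muscle classes. Among the 6 non-red classes, epicardial cells led in Rps27, at 37.2 (34.3 to 40.4) and 33.7 (31.6 to 35.8), with mesenchymal cells at 33.9 and 29.3, and in Rpl39, at 136 and 147 against 89.2 to 116. Mesenchymal cells had the most Rpl37, 406 and 398, which epicardial cells approached at 393 and 386. Rps2 and Rplp0 ranked among the lowest in both classes.

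Macrophages and endothelial cells had the most Rps27a, at 521 (502 to 541) and 477 (463 to 492) in macrophages and 434 and 438 in endothelial cells. Macrophages also had the least Rps27 of all classes, at 15.8 (12.6 to 19.6) and 20.6 (17.6 to 23.8). Their Rplp0 difference of -0.76 and -0.63 was the 1 called value outside red cells. With red cells left out of the classes compared, a choice made after seeing the data, Rplp0 was no longer past 1.5-fold in both libraries. The megakaryocyte markers in this class were given above, and their part in these values was not tested.

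Paralogs were read as their share of the UMIs of a pair, which can be compared between classes. Rpl22l1 gave 22.6% to 27.4% of the UMIs of Rpl22 and Rpl22l1 together in the 6 non-red classes. It had 232 UMIs beside 1624 of Rpl22 in control red cells, a share with the interval 11.03% to 14.1%, and gave 22.4% (21.3 to 23.6) in mutant red cells, so that these intervals did not overlap. The 2 messages share 68.2% of coding bases.

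Rps27l gave 65.6% and 63.8% of the Rps27 and Rps27l pair in ventricular cells, 46.9% (44.0 to 49.9) and 47.2% (44.9 to 49.5) in epicardial cells, and 39.9% and 30.9% in red cells. Macrophages were highest, at 73.1% (67.8 to 78.0) and 67.0% (62.9 to 71.0). The coding sequence of Rps27rt matches that of Rps27 at 100% of bases, so reads from within it cannot be told apart. At the transcript ends, 100% of the 50-base words of Rps27 and 88.4% of those of Rps27rt occurred in another annotated gene. Rps27rt was given 313 and 267 UMIs in all.

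Rpl36al gave 26.5% (25.7 to 27.3) and 22.1% (21.3 to 23.0) of its pair with Rpl36a in atrial cells, the highest control value, and 15.3% and 14.2% in epicardial cells. Its share was lower in the mutant in each of the 7 classes. Rpl7l1 gave 10.9% and 9.47% of the Rpl7 and Rpl7l1 pair in atrial cells, 2.67% and 3.22% in red cells, and 6.78% to 7.86% in the rest.

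The tissue-restricted paralogs were at or near the limit of detection. Rpl3l, known from striated muscle, had 20 and 12 UMIs in ventricular and 6 and 10 in atrial cells, 1 and 1 in macrophages, and 0 in the other classes. A count of 0 allows up to 3 UMIs in a class. Rpl39l had at most 7 UMIs in any class and Rpl10l had 1 in all, so no class could be ranked for either.

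**Figure D4:**
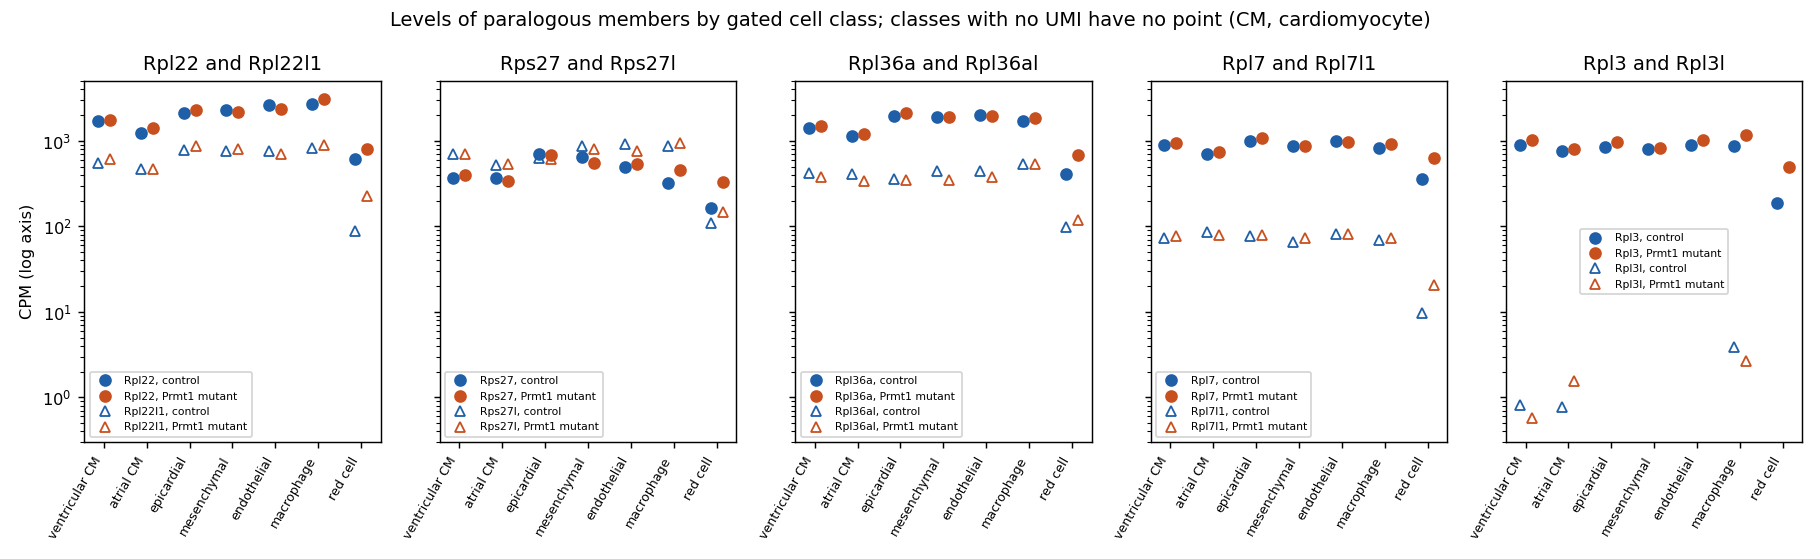
CPM on a log axis of 5 members (filled circles) and their paralogs (open triangles) in each gated class (CM, cardiomyocyte), control in blue and Prmt1 mutant in orange; a class with no UMI has no point. Rpl22l1 in red cells is at 87.5 CPM in the control and 229 CPM in the mutant, and Rpl3l has points in cardiomyocytes and macrophages only.

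The comparison of genotypes asked whether the set moved in the library with floxed Prmt1. In the 6 non-red classes the summed level differed little. The log2 ratio of mutant to control CPM, negative in mesenchymal cells except with clusters in place of gates (0.01), was 0.061 (0.059 to 0.063) in ventricular and 0.07 in atrial cardiomyocytes, 0.09 (0.08 to 0.10) in epicardial cells, -0.02 (-0.03 to -0.01) in mesenchymal, -0.05 in endothelial cells and 0.15 (0.13 to 0.16) in macrophages. Medians over members were 0.08, 0.06, 0.07, -0.03, -0.05 and 0.20 in that order, and medians over all genes measured 0.03, -0.04, -0.05, -0.01, 0.05 and 0.02.

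Members past 1.5-fold between genotypes, among 82 or 83 per class, numbered 0 in ventricular cells, against 0.321% of genes higher and 0.321% lower. They numbered 0 in atrial cells, against 0.519% and 0.483%. They numbered 0 in epicardial cells, against 2.1% and 5.89%, and 0 in mesenchymal cells, against 0.973% and 1.26%. They numbered 0 in endothelial cells, against 5.75% and 1.31%. In macrophages 2 members were higher and 0 lower, against 15.5% and 14.6% of genes. With each cell thinned to 1000 UMIs, 1 member passed in atrial, 1 in epicardial and 1 in endothelial cells and 4 in macrophages, without a gene share for that setting.

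Those 2 were Rps19, the protein first linked to Diamond-Blackfan anaemia, at 1179 and 1786 CPM, 152% (132 to 174) of the control, and Rpl13a, at 158 and 243 CPM, 153% (105 to 227). The latter rests on 41 and 92 UMIs. Rpl10 and Rpl12 came next in macrophages at 147% and 146%. In the same class macrophage markers summed to 22142 and 14971 CPM and megakaryocyte markers to 3010 and 4686 CPM, and the part of that change was not tested.

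In red cells the summed level was 0.59 (0.59 to 0.60) higher in the mutant. The median was 0.63 over members and 0.55 over all genes. There 46 of 82 members were past 1.5-fold higher, against 1573 of 3353 genes (46.9%), and 0 lower, against 0.507%. With each cell thinned to 1000 UMIs the summed ratio was 0.22 and 7 members were higher. With clusters in place of gates these were 0.40 and 14, and under the stricter gate 0.45 and 24. No gene share is given for these alternatives. Without haemoglobin and mitochondrially encoded UMIs the ratio was 0.0105 (0.0018 to 0.0193), with size factors it was -0.03, and 2 of 83 members were higher and 0 lower, against 31.6% of genes in either direction. On all UMIs Rpl3, a core protein of the large subunit, was at 186 and 491 CPM, 264% (239 to 291), Rpl22l1 at 262% (227 to 303), Rps4x at 578 and 1272 CPM and Rpl9 at 494 and 1008 CPM. Beside this, the haemoglobin share of red cells was 74.3% and 61.4% and their median depth 10060 and 6541 UMIs. On the reduced total the summed level differed by the 0.0105 above, with a median of 0.06 over members and 0.28 over all genes. On that total 1850 of 6637 genes were past 1.5-fold higher and 247 lower.

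**Figure D5:**
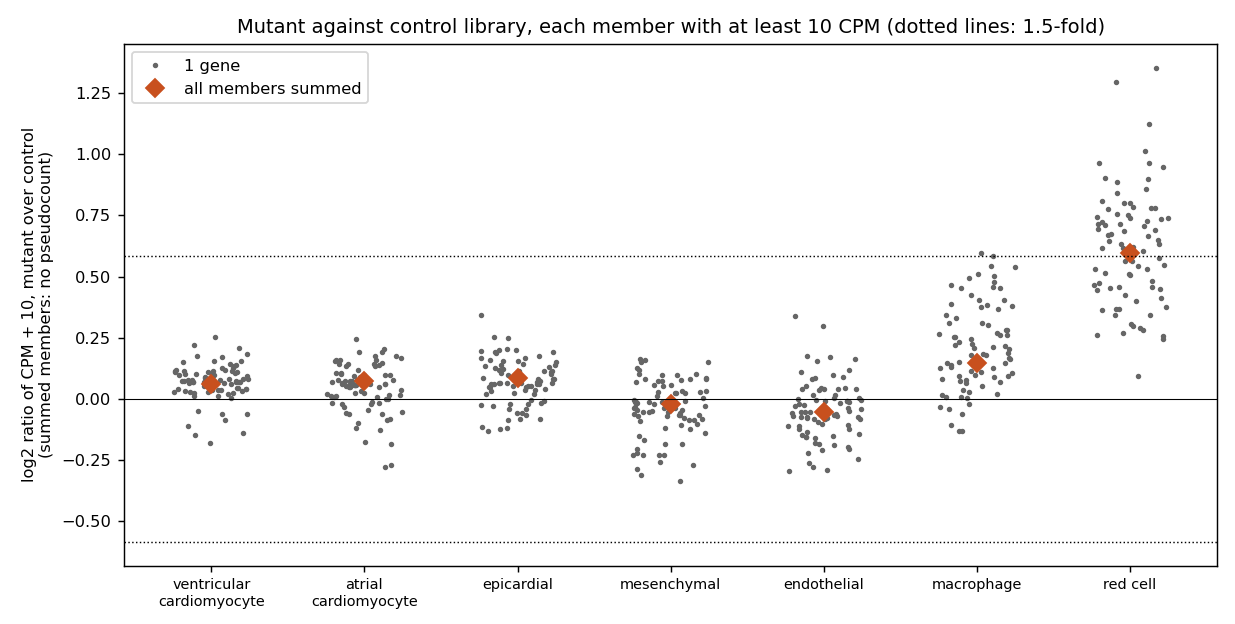
Log2 ratio of mutant to control CPM, with 10 CPM added to each, for every member with at least 10 CPM (grey points) and for all members summed (orange diamonds), by gated class; dotted lines mark 1.5-fold. Points of 5 classes lie between the dotted lines, 2 macrophage points lie past the upper one, and all red-cell points lie above 0, from 0.09 to 1.35.

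Among single members outside red cells, Rpl10a, a large-subunit protein, differed most in epicardial cells, at 2266 and 2875 CPM, 127% (120 to 134). It was also among the highest ratios in atrial cells, at 119% (115 to 122), and in mesenchymal cells, at 111% (107 to 115). Rpsa was at 119% (114 to 125) in epicardial and 115% (113 to 117) in atrial cells. In ventricular cells Rpl10, Rpl5, Rpl26 and Rpl3 led, between 114% and 120%.

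Rpl36al was lowest in atrial cells, at 411 and 337 CPM, 82.0% (77.7 to 86.7), and in mesenchymal cells, at 445 and 351 CPM, 78.9% (72.4 to 86.0). Rpl35a was at 88.1% in ventricular, 87.9% in atrial and 81.8% in mesenchymal cells. Rps18 was at 90.6%, 82.7% and 81.5% in ventricular, atrial and endothelial cells. Rps28, Rps23, Rps18 and Rpl29 were lowest in epicardial cells, between 91.2% and 92.2%, and Rps12 was at 82.8% in mesenchymal cells.

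Relative to the summed set, 12 of the 81 members measured in every class and library had the same sign of mutant against control in all 7 classes. The 5 lower ones were Rpl36al (-0.11 to -0.35 on the log2 scale), Rpl29 (-0.13 to -0.28), Rpl21 (-0.001 to -0.32), Rps28 (-0.0015 to -0.28) and Rps27l (-0.011 to -0.23). The 7 higher ones were Rpl36 (0.08 to 0.15), Rps3 (0.02 to 0.14), Rpl18 (0.05 to 0.23), Rps4x (0.04 to 0.54), Rpsa (0.0099 to 0.17), Rpl30 (0.0044 to 0.16) and Rpl3 (0.003 to 0.79). Several thus came near 0 in at least 1 class, and no share over all genes is given beside the 12. All classes come from the same pair of libraries, so these are not independent observations.

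Rps4x, Rpl10, Rpl39 and Rpl36a lie on the X chromosome. Rps4x was at 220% of control in red cells and at 99% to 119% elsewhere, Rpl10 at 192% and at 89% to 147%, Rpl39 at 139% and at 102% to 115%, and Rpl36a at 166% and at 97% to 108%. Xist, which marks the inactive X of females, stood at 20.3 and 68.8 CPM over all cells, and the Y-linked Ddx3y at 9.95 and 4.73 CPM, so the first was higher and the second lower in the mutant library. The part of this in the X-linked values was not tested.

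Of ribosome components outside the naming rule, Fau, fused to a ubiquitin-like protein, was highest in macrophages, at 9483 and 8449 CPM against 4475 and 4437 in ventricular cells and 983 and 1450 in red cells. Rack1 was highest in endothelial cells of the control, at 897 CPM, and in macrophages of the mutant, at 826 CPM.

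Translation factors and other messages with the same kind of start, 18 of 20 listed genes measured, had 0 past 1.5-fold between genotypes in 5 classes, 3 higher in macrophages, against 15.5% of all genes, and 15 higher in red cells, against 46.9%. The 3 in macrophages included Hnrnpa1, at 104 and 248 CPM on 27 and 94 UMIs, and Npm1, at 707 and 1311 CPM. Eef1a1, the elongation factor that delivers aminoacyl-tRNA, was at 1227 and 1828 CPM in endothelial cells, just under 1.5-fold. Pabpc1, the poly(A)-binding protein, had its highest level in red cells, at 797 and 759 CPM against 127 to 377 elsewhere. Of the 18, 13 were more than 1.5-fold below the other classes there in both libraries on all UMIs, against 61.8% of all genes. With the reduced total 0 were below in red cells, against 851 of 6831 genes, and 5 above, against 11.2%.

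Of 33 listed ribosome biogenesis genes 29 were measured across classes. On the reduced total 3 were more than 1.5-fold above the other classes in endothelial cells in both libraries, against 10.0% of all genes. Macrophages also had 3 above, against 11.2%, and 1 below, against 1439 of 6831 genes. Below the other classes were 4 in atrial cells, against 16.2%, and 3 in red cells, against 851 of 6831 genes. On all UMIs the endothelial count above was 10, against 17.6%, and the red-cell count below was 23, against 61.8%. Nucleolin (Ncl) was at 52 and 166 CPM in red cells and at 406 and 383 CPM in endothelial cells. Between genotypes 5 of 30 were higher in macrophages, against 15.5% of all genes, and 13 of 17 in red cells, against 46.9%. In endothelial cells 2 of 30 were higher, against 5.75%, in epicardial cells 1 of 29, against 2.1%, and in the other 3 classes 0. Regulators of ribosomal protein synthesis, 16 listed, had 6 to 11 measured per class. In red cells 3 of 6 were higher in the mutant, against 46.9% of all genes, and in macrophages 2 of 8 were higher and 1 lower, against 15.5% and 14.6%, with 0 in the other 5 classes.

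Mitochondrial ribosomal proteins showed another order of classes. On the reduced total 23 of 77 measured were more than 1.5-fold above the other classes in both libraries in ventricular cardiomyocytes, against 8.39% of all genes, and 16 in atrial ones, against 8.62%. In red cells 45 were below, against 851 of 6831 genes. On all UMIs, where haemoglobin fills much of the red-cell total, 77 were below in red cells, against 61.8%. Their sum was 16789 and 16345 CPM in ventricular and 12567 and 12854 CPM in epicardial cells, for this pair of classes the reverse of the cytosolic set. Atrial cells had 15000 and 15043 CPM, mesenchymal cells 14174 and 13776, endothelial cells 14226 and 13251, and macrophages 14611 and 14971. Red cells were lowest, as in the cytosolic set on all UMIs, at 2039 and 2832 CPM. Between genotypes 7 of 76 were higher and 4 lower in macrophages, against 15.5% and 14.6% of all genes, and 14 of 60 were higher in red cells, against 46.9%. In epicardial cells 1 of 76 was higher, against 2.1%, in mesenchymal cells 1 of 77, against 0.973%, and elsewhere 0.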

How the data were processed

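The deposited values were UMI counts per gene and barcode for 1 library per genotype. Per the file headers the counting was done with Cell Ranger 3.0.2, and Seurat is named in the submitters' processing notes. For the genome build, the sources used here give none. The control matrix listed 6794880 barcodes and so was unfiltered, while the mutant matrix held 7181 barcodes of at least 500 UMIs. Libraries held 49323576 and 48527471 UMIs. The members and lists were chosen with earlier results of these data known.

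Cells with at least 1000 UMIs, 500 genes and at most 20% mitochondrially encoded UMIs were kept. Gates used UMIs of marker lists per 10000: red cells at least 500 and cardiomyocyte markers under 30; cardiomyocytes at least 100, ventricular with at least 40 from Myl2, Myl3, Irx4 and Hey2, atrial with under 40 and at least 5 from Sln, Myl1, Stard10 and Nr2f2. Of cells under 30 for cardiomyocyte markers, macrophages needed at least 20, and endothelial, epicardial and mesenchymal cells at least 10, each from 2 or more markers. Macrophage, endothelial and epicardial cells could not meet a second of these 3 gates, but mesenchymal markers excluded no cell from them. Mesenchymal cells also needed under 5 for epicardial, under 10 for endothelial and under 20 for macrophage markers. Doublets were not called.

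Counts were summed per class and library. A member's genotype ratio was log2 of CPM plus 10, so low genes are understated, among genes averaging at least 10 CPM. Composition was the share of ribosomal protein UMIs, on a log2 scale with the same addition. A call means past 1.5-fold. Intervals are exact and 95%, for counting error; UMIs of 1 library are no replicates. The ratio scripts were tested on simulated data. Alternatives were other cell minimums (500 UMIs and 200 genes, or 3000 UMIs), thinning to 1000 UMIs, a total without haemoglobin and mitochondrial messages, size factors, Leiden clusters (2000 variable genes without the members, 30 components, 15 neighbours, resolution 1), a stricter gate, 2-fold, other minimums, and leaving out the 10 most abundant members. Named members were, per class, the 4 highest and 4 lowest with at least 30 UMIs in composition (same sign in both libraries) and between genotypes, the paralog pairs, Rps27a, Rpsa and the stalk genes, and up to 4 per gene list by size of ratio; others named were chosen after their values were seen. Some members and listed genes are not reported here. Positions came from GENCODE M21 and start windows from RefSeq on GRCm38.p6. Python 3.11.15, numpy 2.4.6, scipy 1.17.1, pandas 2.3.3, leidenalg 0.10.2, igraph 0.11.9, scikit-learn 1.9.0, Biopython 1.88 and matplotlib 3.10.9 were used.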

Additional observations from a re-analysis of the deposited data

Results flagged for a closer look

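The ribosomal protein level relative to control did not go the same way in all classes. The log2 ratio of mutant to control CPM was 0.0611 in ventricular, 0.0749 in atrial and 0.0867 in epicardial cells, 0.1483 in macrophages and 0.5949 in red cells, with counting intervals above 0. It was -0.0205 in mesenchymal and -0.053 in endothelial cells, with intervals below 0. The difference between the classes was not tested, since each genotype is 1 library.

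Barcodes outside the comparisons also carried the set. In control barcodes with 1 to 100 UMIs, 535033 of them, ribosomal protein genes gave 11.0204% of 1560953 UMIs, beside 7.40% haemoglobin. The mutant library held no such barcodes in the files used here. Barcodes with at least 1000 UMIs but under 500 genes, 1744 in the control and 2131 in the mutant, gave 4.1393% and 5.9623%, beside haemoglobin at 73.6% and 63.5%. Without haemoglobin and mitochondrially encoded UMIs the shares of the latter were 16.2% and 17.9%.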

How the results depend on the processing

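Each alternative kept the other settings, except that the lower cell minimum changed UMIs and genes together and thinning also gave each cell equal weight. Red cells were left out of the classes compared as a choice made after seeing the data. The cause of each change was not tested. Counts of members below are given without the share of all genes under the same setting. The minimums of 50 CPM and of 1 UMI in each group moved no count by more than 1.5 times in any class.

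The log2 ratio of mutant to control moved beyond its counting interval as follows. With 500 UMIs and 200 genes as the minimum it was 0.56 in red cells. With at least 3000 UMIs per cell it was 0.11 in epicardial cells, -0.068 in mesenchymal cells, -0.076 in endothelial cells and 0.63 in red cells. With each cell thinned to 1000 UMIs it was 0.069 in ventricular cells, 0.047 in atrial cells, 0.055 in epicardial cells, -0.0007 in mesenchymal cells, -0.034 in endothelial cells, 0.11 in macrophages and 0.22 in red cells. With clusters in place of gates it was 0.068 in ventricular cells, 0.067 in atrial cells, 0.057 in epicardial cells, 0.012 in mesenchymal cells (reversed), 0.12 in macrophages and 0.40 in red cells. With size factors it was 0.0499 in ventricular cells, 0.052 in epicardial cells, -0.042 in mesenchymal cells, -0.015 in endothelial cells, 0.086 in macrophages and -0.032 in red cells (reversed). Under the stricter gate it was 0.066 in ventricular cells, 0.0699 in atrial cells, 0.097 in epicardial cells, -0.024 in endothelial cells and 0.45 in red cells. Without haemoglobin and mitochondrial UMIs it was 0.057 in ventricular cells, 0.0698 in atrial cells, -0.045 in endothelial cells and 0.011 in red cells. Without the 10 most abundant members it was 0.0696 in ventricular cells, 0.062 in atrial cells, -0.026 in mesenchymal cells, -0.042 in endothelial cells, 0.19 in macrophages and 0.62 in red cells.

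Counts of members past 1.5-fold between genotypes moved by more than 1.5 times as follows. With at least 3000 UMIs per cell there were 1 in macrophages. With each cell thinned to 1000 UMIs there were 1 in atrial cells, 1 in epicardial cells, 1 in endothelial cells, 4 in macrophages and 7 in red cells. With clusters in place of gates there were 1 in macrophages and 14 in red cells. With size factors there were 0 in macrophages and 2 in red cells. Under the stricter gate there were 24 in red cells. Without haemoglobin and mitochondrial UMIs there were 1 in macrophages and 2 in red cells. At 2-fold there were 0 in macrophages and 4 in red cells.

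The log2 difference of a class from the mean of the others moved by more than the spread between the libraries as follows. With at least 3000 UMIs per cell it was 0.34 in epicardial cells and 0.55 in macrophages. With each cell thinned to 1000 UMIs it was -0.0103 in ventricular cells (reversed), -0.37 in atrial cells, 0.43 in macrophages and -1.05 in red cells. With clusters in place of gates it was 0.12 in ventricular cells, -0.22 in atrial cells, 0.51 in epicardial cells and 0.54 in macrophages. With size factors it was -0.097 in ventricular cells (reversed), -0.38 in atrial cells, -0.0081 in epicardial cells (reversed), -0.18 in mesenchymal cells (reversed), -0.11 in endothelial cells (reversed), 0.032 in macrophages and 0.74 in red cells (reversed). Under the stricter gate it was 0.14 in ventricular cells, -0.21 in atrial cells, 0.45 in epicardial cells, 0.60 in macrophages and -1.97 in red cells. Without haemoglobin and mitochondrial UMIs it was -0.20 in ventricular cells (reversed), -0.55 in atrial cells, 0.10 in epicardial cells, 0.046 in mesenchymal cells, 0.16 in endothelial cells, 0.23 in macrophages and 0.21 in red cells (reversed). Without the 10 most abundant members it was 0.50 in macrophages. With red cells left out of the other classes it was -0.19 in ventricular cells (reversed), -0.54 in atrial cells, 0.15 in epicardial cells, 0.088 in mesenchymal cells, 0.20 in endothelial cells and 0.29 in macrophages.

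Counts of members whose share passed 1.5-fold in a class moved as follows. With 500 UMIs and 200 genes as the minimum there were 1 in atrial cells. With each cell thinned to 1000 UMIs there were 2 in macrophages and 7 in red cells. With clusters in place of gates there were 1 in atrial cells, 6 in epicardial cells, 3 in mesenchymal cells, 0 in macrophages and 31 in red cells. Under the stricter gate there were 1 in atrial cells and 35 in red cells. Without haemoglobin and mitochondrial UMIs there were 1 in atrial cells. At 2-fold there were 0 in macrophages and 4 in red cells. With red cells left out of the other classes there were 0 in macrophages.

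Of the 6 alternatives that changed the cells, their depth or the fold, Rplp0, Rplp1 and Rpsa passed in red cells under 6, Rps2, Rps27l and Rps19bp1 under 5, and Rps9 under the fewest, 2. The others, on totals, minimums and the classes compared, leave a share of the set in red cells as it is or nearly so. Gates held 90.2% of gated cells in the class that 18 clusters gave them. Moving every gate by 20% changed the class of 80 of 1293 mutant mesenchymal cells, the most cells, and of 65 of 399 mutant epicardial cells, the highest share, beside 10 of 231 in the control. No paired analysis was possible because each genotype is 1 library, and for the same reason no replicate could be left out. Depth limited macrophages most, with 52443 and 85122 ribosomal protein UMIs, and sparse members such as Rpl3l, Rpl10l and Rpl39l could not be compared. Doublets were not called, and beyond the limits of the gates, cells with markers of a second class were left out only under the stricter gate.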
